A study of Schizosaccharomyces pombe with 6 samples.

Results

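The 6 genes described here serve the uptake of iron bound to siderophores and of haem in fission yeast, Schizosaccharomyces pombe. They were taken by gene name from the 6988 features of a deposited count table: the siderophore-iron transporter genes str1 (SPBC4F6.09) and str2 (SPCC61.01c), the ferrichrome synthesis genes sib1 (SPAC23G3.02c) and sib2 (SPAC23G3.03), and the haem acquisition genes str3 (SPAC1F8.03c) and shu1 (SPAC1F8.02c). The name str3 marks the gene as a relative of the siderophore transporters, but the authors' deposited table annotates its product as a plasma membrane haem transporter, and it is grouped with shu1 below. Poly(A)+ RNA was sequenced from a strain with the pla1-Y86D allele and from a strain with wild-type pla1. Pla1 is the nuclear poly(A) polymerase, and Y86D changes its active site. Both strains were of mating type h-, carried the kanMX drug marker at pla1 and were grown in YES, a rich medium, to log phase. Each genotype was 1 strain with 3 libraries. The series calls these replicates without saying whether cultures were separate, so a p-value measures the spread between libraries, which may be technical. Because RNA was selected by its poly(A) tail and a poly(A) polymerase was altered, a change in the amount of an mRNA and a change in the share of it that is captured cannot be told apart. Neither can more RNA per cell and more cells that make it.

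Siderophores are small molecules that bind ferric iron. Fission yeast makes ferrichrome from hydroxylated ornithine inside the cell. Sib2 hydroxylates ornithine and Sib1, a non-ribosomal peptide synthetase, assembles the product. Str1 and Str2 carry iron-loaded siderophores across the plasma membrane, while the surface protein Shu1 binds haem and Str3 transports it. In this yeast the GATA-type repressor Fep1 keeps iron uptake genes low when iron is plentiful, and Php4 represses genes for iron-using proteins when iron is scarce.

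The libraries held 17594840 to 21173765 counts in pla1-Y86D and 19275152 to 21849845 in pla1-WT. Levels are given as CPM, counts per 1000000 of the library total after TMM scaling, and 1 count was worth between 0.0455 and 0.0573 CPM. The mutated gene is no check of the labels, since a point mutation need not alter the level of its mRNA, which averaged 47.4 ± 0.85 CPM in pla1-Y86D and 36.6 ± 0.96 CPM in pla1-WT (SD, n = 3 each). Markers of the M cells that an h- strain holds (mam1, mam2 and mfm1 to mfm3) summed to 53.8 to 54.7 CPM in pla1-Y86D and 64.2 to 71.7 CPM in pla1-WT. The P-cell genes map1, map2 and map3 summed to 21.7 to 24.0 CPM in pla1-Y86D and 23.5 to 24.0 CPM in pla1-WT. These sums hide single genes that differed in direction. Log2 fold changes, pla1-Y86D over pla1-WT, were -0.26 for mam1, 0.80 for mam2, 0.0006 for mfm1, -0.95 for mfm2 and -0.21 for mfm3. They were 0.32 for map1, 0.58 for map2 and -0.69 for map3. None of the 8 markers was at 0 in either strain, and their part in the results was not tested.

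Of the 6 genes, str1, str3 and sib2 were called higher in pla1-Y86D and sib1 was called lower by a small amount, while str2 was not called and shu1 had too few counts to enter the test. Calls are adjusted p-values under 0.05 from edgeR's quasi-likelihood test over 6267 features. Calls were common in this comparison: 81.2% of the tested features were called, 40.1% as higher and 41.1% as lower, while 9.02% were higher and 2.38% lower by at least 2-fold. The number of called genes among the 6 therefore says little, and the sizes of their changes differed widely. The 6 genes and the gene lists used below were also chosen with earlier results of these data known. Their calls, ranks and p-values are therefore descriptive. In str1, str3, sib1, sib2 and shu1 the libraries of the strains did not overlap, which was also the case for 81.9% of the tested features. Of the genes, 5 passed the filter on low counts, but str3 did so through its pla1-Y86D libraries alone, with all pla1-WT libraries below the filter level of 0.494 CPM.

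**Figure D1:**
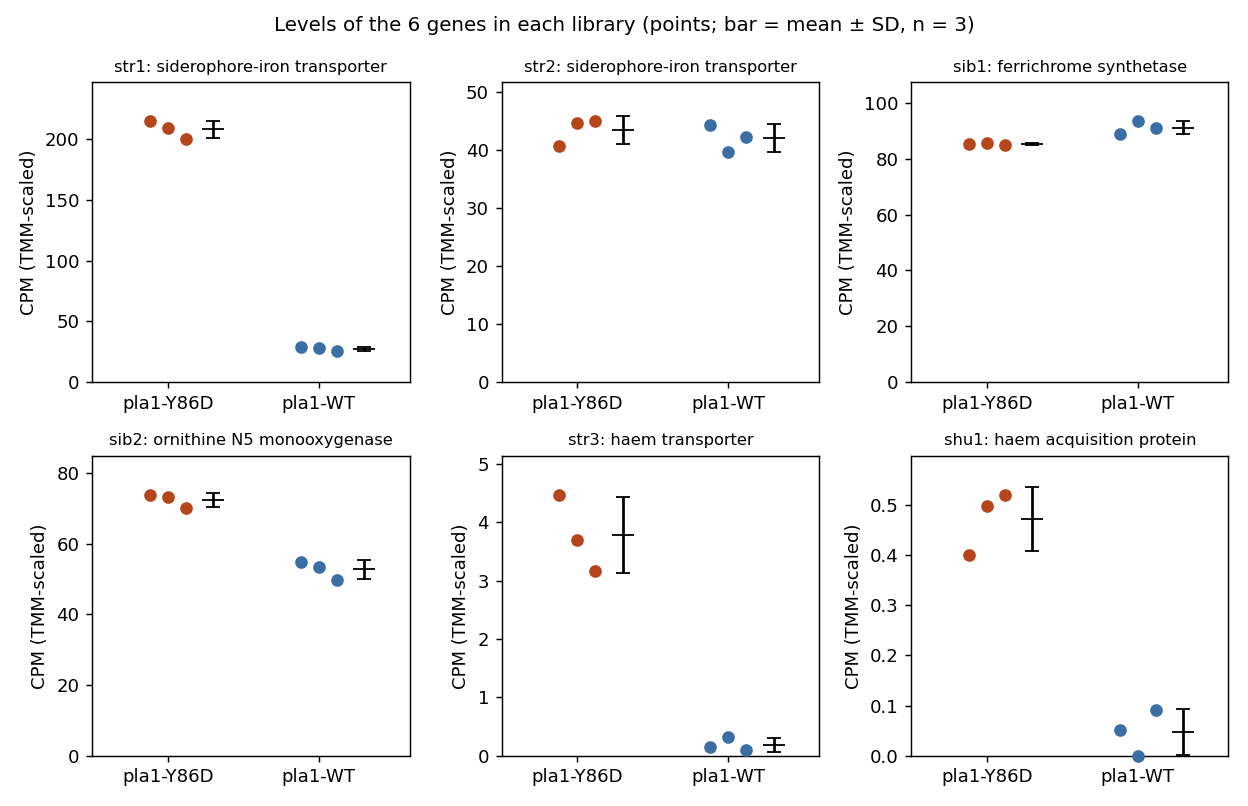
Level of each gene in CPM (vertical axes from 0, a scale of its own per gene) in the 3 pla1-Y86D libraries (orange) and the 3 pla1-WT libraries (blue), with mean ± SD as black bars. The strains are far apart for str1, between 201 and 215 CPM against 25.6 to 28.4 CPM, and they overlap for str2.

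The siderophore transporter genes differed from each other in their response. str1, the ferrichrome transporter gene, stood at 215, 209 and 201 CPM in pla1-Y86D replicates 1, 2 and 3, and at 28.4, 27.9 and 25.6 CPM in pla1-WT replicates 1, 2 and 3. The lowest mutant library was thus far above the highest wild-type library. This amounts to a 7.63-fold higher level in pla1-Y86D (log2 fold change 2.93 with an SE of 0.038, edgeR adjusted p = 2.28e-36). By size of increase, str1 was at rank 18 among the 4996 protein-coding genes tested. The value stayed between 2.89 and 2.99 in every alternative fit tried.

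str2, the other siderophore-iron transporter gene, stood at 40.7, 44.6 and 44.9 CPM in pla1-Y86D and at 44.3, 39.6 and 42.1 CPM in pla1-WT. The ranges of the strains overlapped, and the lowest library of all was of the wild type. The strains differed by 0.05 on the log2 scale (edgeR adjusted p = 0.331), with a 95% interval from -0.04 to 0.15, so a change as large as that of str1 lies outside the interval. When scaling and fit used protein-coding features alone, the log2 fold change was 0.11 and the edgeR adjusted p = 0.0455, which made it a call. Counts of str1 per count of str2 were 5.28, 4.69 and 4.47 in the pla1-Y86D libraries and 0.641, 0.703 and 0.608 in the pla1-WT libraries. The order of the transporter counts was thus reversed between the strains. str1 was above str2 in every mutant library and below it in every wild-type library. The span of str2 overlaps the gene rpl6 on the opposite strand, at 2856 ± 66 CPM in pla1-Y86D and 2887 ± 59 CPM in pla1-WT. How strand was set in counting is not given in the sources used here, so str2 counts may include rpl6 reads, which was not tested. That limit holds for every comparison with str2 below.

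The ferrichrome synthesis genes moved little, and not together. sib2, the ornithine N5 monooxygenase gene of the first step, stood at 73.7, 73.1 and 70.0 CPM in pla1-Y86D and at 54.9, 53.4 and 49.8 CPM in pla1-WT. All mutant libraries were above all wild-type libraries. The level was 1.37-fold higher in pla1-Y86D, a log2 fold change of 0.46 with an SE of 0.040 (edgeR adjusted p = 2.28e-12), and it was at rank 659 among the protein-coding genes by size of increase.

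sib1, the ferrichrome synthetase gene, stood at 85.4, 85.6 and 85.0 CPM in pla1-Y86D and at 88.9, 93.5 and 91.2 CPM in pla1-WT. The mutant libraries were nearly alike and all lay just below the wild-type libraries. The mutant level was 0.935 of the wild-type level, a log2 fold change of -0.10 with an SE of 0.033 (edgeR adjusted p = 0.00861). This call was lost with DESeq2 (log2 fold change -0.09, adjusted p = 0.0648) and with protein-coding features alone (-0.04, edgeR adjusted p = 0.24), and the authors' deposited table gives an adjusted p of 0.0607. Counts of sib1 per count of sib2 were 1.16, 1.17 and 1.21 in pla1-Y86D and 1.62, 1.75 and 1.83 in pla1-WT, and these sets did not overlap.

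The haem genes were close to the limit of detection in the wild type. str3, the haem transporter gene, had 78, 67 and 67 counts in the pla1-Y86D libraries and 3, 7 and 2 counts in the pla1-WT libraries. On the CPM scale these were 4.47, 3.71 and 3.17 in pla1-Y86D and 0.153, 0.319 and 0.0917 in pla1-WT. Every mutant library was well above every wild-type library, at a level that was still low. The fitted log2 fold change was 4.26 with an SE of 0.31 (edgeR adjusted p = 1.55e-14). Since str3 passed the filter through its pla1-Y86D libraries alone, the fit with no filter on low counts is given beside it, at 4.26 (edgeR adjusted p = 1.13e-17). As a ratio of summed counts, 212 against 12, str3 was 19.7-fold higher, with a 95% exact interval of 11.1 to 38.8 that covers counting error only. The wild-type count decides this size: without pla1-WT replicate 2, which holds 7 of the 12 counts, the log2 fold change was 4.88.

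shu1, the gene of the haem-binding surface protein, had 7, 9 and 11 counts in pla1-Y86D and 1, 0 and 2 counts in pla1-WT. These were 0.401, 0.498 and 0.52 CPM in pla1-Y86D and 0.0511, 0 and 0.0917 CPM in pla1-WT, where the 0 allows a level of up to 0.137 CPM. The libraries of the strains did not overlap, with a few counts between them. The summed counts were 27 in pla1-Y86D and 3 in pla1-WT, a ratio of 10.1 with a 95% exact interval of 3.10 to 51.8, again for counting error only. Single wild-type libraries decide its size, since leaving out pla1-WT replicate 2 gave a ratio of 6.57 and leaving out pla1-WT replicate 3 gave 19.8. In the fit with no filter, 77.2% of 6686 features were called, 38.0% as higher. There shu1 was called higher by 3.16 on the log2 scale, with an SE of 0.74 (edgeR adjusted p = 0.000137). In the authors' deposited table its log2 fold change is 3.33 with an adjusted p of 0.00254.

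The authors' deposited table has the same direction for each of the genes. Its log2 fold changes are 2.94 for str1, 0.05 for str2, 4.32 for str3, -0.09 for sib1 and 0.46 for sib2, and 71.5% of the features with an adjusted p there are called.

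Set per kb of coding length, so that genes of different size can be compared, the order of the levels differed between the strains at the top. In pla1-Y86D the order was str1 (113 ± 3.9 CPM per kb), sib2 (55.8 ± 1.5), str2 (24.2 ± 1.3), sib1 (5.78 ± 0.023), str3 (2.0 ± 0.34) and shu1 (0.694 ± 0.093), each SD over 3 libraries. In pla1-WT the order was sib2 (40.7 ± 2.0 CPM per kb), str2 (23.4 ± 1.3), str1 (14.8 ± 0.8), sib1 (6.17 ± 0.15), str3 (0.0992 ± 0.062) and shu1 (0.0699 ± 0.067). Neighbours in these orders did not overlap between libraries, except str3 and shu1 in pla1-WT. sib1, whose coding sequence of 14775 bases is by far the longest of the 6, had a higher CPM than sib2 but a lower level per length. Compared with the coding-length levels of 4996 protein-coding genes, str1 stood above 69.0% of them in pla1-Y86D and above 11% in pla1-WT.

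**Figure D2:**
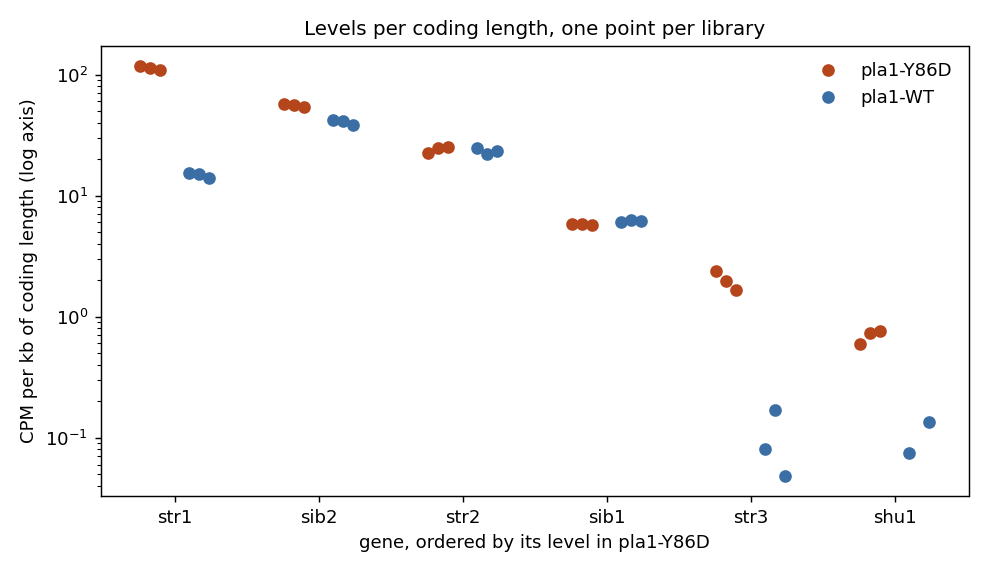
Level per kb of coding length (CPM per kb, log axis) of the 6 genes, with 1 point per library and pla1-Y86D (orange) left of pla1-WT (blue). The shu1 value of 0 in pla1-WT replicate 2 cannot be drawn on a log axis, and str1 is the highest gene in pla1-Y86D but lies below sib2 and str2 in pla1-WT.

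Whether the genes moved by the same amount was compared for 5 pairs, with the difference in log2(CPM + 0.5) of the 2 genes taken within each library. In pla1-Y86D this difference averaged 2.25 ± 0.12 for str1 minus str2, against -0.61 ± 0.10 in pla1-WT (SD, n = 3 each), a gap of 2.86 between the strains. The gap was -0.55 for sib1 minus sib2, at 0.24 ± 0.034 in pla1-Y86D and 0.79 ± 0.089 in pla1-WT. For str2 minus str3 it was -2.59, and for shu1 minus str3 it was -1.81. Both sizes depend on the 0.5 added to low levels: they were -1.35 and -1.12 with 2 added, and -4.06 and -1.57 with 0.05 added, about the worth of 1 count. Each of these 4 pairs had a two-sided exact permutation p of 0.1, the smallest that 3 against 3 libraries allow, and 0.125 after Benjamini-Hochberg adjustment over the 5 pairs. On the count scale, however, the strains overlapped for shu1 and str3. There were 0.0897, 0.134 and 0.164 counts of shu1 per count of str3 in pla1-Y86D, and 0.333, 0 and 1 in pla1-WT. For str1 minus str3 the gap was 0.27 (exact permutation p = 0.3, adjusted 0.3). There the sign itself depended on what was added, with 1.45 for 2 added and -1.18 for 0.05 added. Counts of str1 per count of str3 were 48.1, 56.5 and 63.4 in pla1-Y86D and 185, 87.4 and 280 in pla1-WT, so on the count scale str3 changed more.

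The genes lie at 4 loci in the RefSeq annotation of assembly ASM294v3, with str1 on chromosome II, str2 on chromosome III and the others on chromosome I. sib1 and sib2 are neighbours on opposite strands, and shu1 and str3 are neighbours on the same strand. Both neighbours of the haem pair were also called higher in pla1-Y86D, as were 40.1% of all features tested. ght3, annotated as a gluconate symporter gene, averaged 7.82 ± 0.34 CPM in pla1-Y86D and 2.74 ± 1.0 CPM in pla1-WT (log2 fold change 1.49, SE 0.17, edgeR adjusted p = 2.81e-08). The noncoding RNA SPNCRNA.604, next to str3, averaged 3.67 ± 0.22 CPM in pla1-Y86D and 2.1 ± 0.099 CPM in pla1-WT (0.80, SE 0.17, edgeR adjusted p = 5.94e-05). Both values were smaller than that of str3.

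Around str1 the pattern was unlike that of the gene itself. mrpl39, for a mitochondrial ribosomal protein, was at 0.03 on the log2 scale (edgeR adjusted p = 0.591), and vps901, for an exchange factor of vesicle traffic, rose by 0.19 (edgeR adjusted p = 1.35e-06). Next to the ferrichrome pair, rpb2, for a subunit of RNA polymerase II, was at 0.03 (edgeR adjusted p = 0.252) and ies4, for a chromatin remodeller subunit, fell by 0.18 (edgeR adjusted p = 0.00236). An antisense RNA of ies4 that overlaps sib2 on the opposite strand was called higher by 0.68 on the log2 scale, with an SE of 0.30 (edgeR adjusted p = 0.042), from 20, 32 and 27 counts in pla1-Y86D and 28, 13 and 14 counts in pla1-WT. Its strains overlapped, and the call was lost with DESeq2 (adjusted p = 0.11), with the replicate number as a block (edgeR adjusted p = 0.062) and when pla1-WT replicate 2 or 3 or pla1-Y86D replicate 2 or 3 was left out (edgeR adjusted p = 0.0511 to 0.213).

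The annotated span of str2 overlaps 3 genes of the opposite strand, and their counts ran in different directions. The histone demethylase gene jmj4 averaged 19.5 ± 1.2 CPM in pla1-Y86D and 56.1 ± 1.1 CPM in pla1-WT (log2 fold change -1.53, edgeR adjusted p = 3.98e-24). The endonuclease gene apn1 rose by 0.26 (edgeR adjusted p = 3.59e-06), and the ribosomal protein gene rpl6, at 2856 ± 66 CPM in pla1-Y86D and 2887 ± 59 CPM in pla1-WT, was at -0.02 (edgeR adjusted p = 0.583). On either side of str2, epe1, another Jumonji protein gene, fell by 0.38 and the SAGA subunit gene spt3 rose by 0.39 (edgeR adjusted p = 5.58e-09 and 1.23e-09). How strand was set in counting is not given in the sources used here, so reads of these genes and of str2 cannot be told apart with certainty. Opposite-strand RNAs that the reference lists but the count table does not were also present, 3 over str1, 7 over sib1 and 1 each over str2, str3 and shu1, and these are not analysed here.

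**Figure D3:**
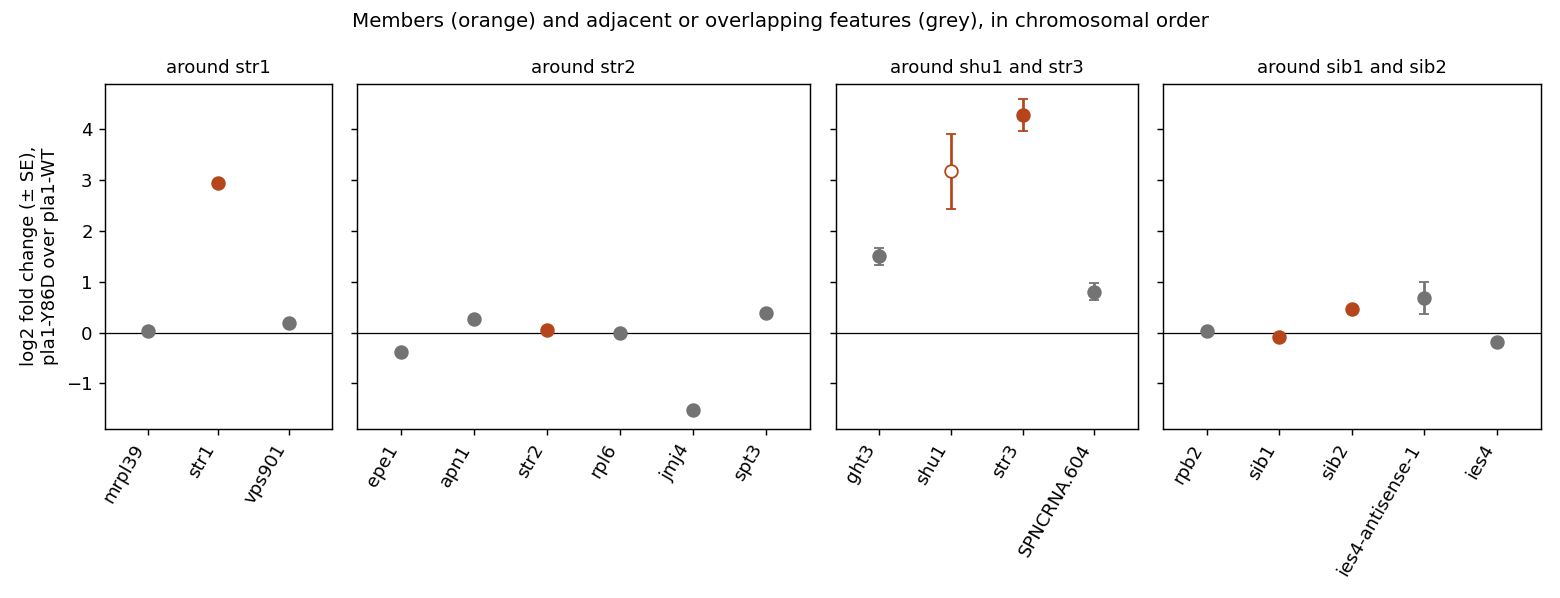
Log2 fold change (vertical axis, pla1-Y86D over pla1-WT, ± SE) of the 6 genes (orange) and of the features next to or overlapping them (grey), in chromosomal order with even spacing. The open circle of shu1 comes from the fit without a filter, and ght3 and SPNCRNA.604 beside the haem pair lie above 0 as shu1 and str3 do.

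The other genes of iron handling were read from 5 lists matched by name. The reductive route, in which a reductase, an oxidase and a permease take up free iron, was higher in pla1-Y86D, with log2 fold changes below those of str1 and str3. Of the 6 genes for reductive uptake and vacuolar iron or haem transport, 5 were called higher and 1 lower, against 40.1% and 41.1% of all features tested, with a median log2 fold change of 1.46, beside -0.0047 for all features tested. The ferric reductase gene frp1 averaged 17.8 ± 1.1 CPM in pla1-Y86D and 3.70 ± 0.6 CPM in pla1-WT (log2 fold change 2.27), the permease gene fip1 rose by 1.58 and the oxidase gene fio1 by 1.57 (edgeR adjusted p = 8.03e-20, 1.2e-18 and 7.64e-23). The lower one, named after its value was seen, was pcl1, for a vacuolar iron and manganese transporter, at 137 ± 0.81 CPM in pla1-Y86D and 225 ± 6.0 CPM in pla1-WT (-0.71). abc3, for a vacuolar haem exporter and likewise named after its value was seen, averaged 53.9 ± 1.6 CPM in pla1-Y86D and 44.0 ± 0.64 CPM in pla1-WT (0.29, edgeR adjusted p = 1.19e-07).

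Among 9 regulators of these genes, 2 were called higher and 6 lower, with a median of -0.27. The 8 called are a share near the 81.2% called among all features, where 40.1% were called higher and 41.1% lower. fra2, for an iron sensor, averaged 5.39 ± 0.27 CPM in pla1-Y86D and 11.3 ± 0.61 CPM in pla1-WT (log2 fold change -1.07, SE 0.10). The repressor gene php4 rose by 0.80 and the corepressor gene tup12 fell by 0.66. The Fep1 repressor gene itself, fep1, named after its value was seen, averaged 53.1 ± 1.9 CPM in pla1-Y86D and 79.0 ± 1.6 CPM in pla1-WT (-0.57). The corepressor gene tup11 was not called, at -0.02 (edgeR adjusted p = 0.621). The edgeR adjusted p of the called regulators was 1.47e-05 or less.

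Of 8 listed haem synthesis genes, 5 were called lower and 2 higher, with a median log2 fold change of -0.11. The 7 called are likewise near the 81.2% of all features, where 40.1% were called higher and 41.1% lower. hem3 averaged 72.6 ± 2.6 CPM in pla1-Y86D and 127.8 ± 2.0 CPM in pla1-WT (-0.81, edgeR adjusted p = 1.13e-21). hem14 fell by 0.55 and hem12 by 0.19, while hem2 was at -0.0042 (edgeR adjusted p = 0.876). The calls of a higher level were hem15 (0.10, edgeR adjusted p = 0.0318), for the ferrochelatase that inserts the iron, and ups1 (0.09, edgeR adjusted p = 0.0198), both named after their values were seen. The symbol ups1 turned out to be that of a phosphatidic acid transfer protein, and leaving it out made 1 call higher and 5 lower among 7. Both calls were lost with total count scaling or DESeq2, where 0 of the list were higher. They were also lost without pla1-Y86D replicate 3, and 1 was lost without pla1-Y86D replicate 1 or without any single pla1-WT replicate.

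Genes of iron-using proteins were called lower in 10 of 14 tested cases and higher in 4, with a median log2 fold change of -0.35, where 41.1% of all features were called lower and 40.1% higher. The dehydratase gene leu2 (-1.24), the homoaconitase gene lys2 (-1.16) and the glutamate synthase gene glt1 (-1.10) had the largest changes of that list, each with an edgeR adjusted p of 1.55e-28 or less. The 4 higher ones were aco1 (0.30), isa2 (0.21), sdh1 (0.20) and ccp1 (0.07), named after their values were seen. The symbol ccp1 belongs here to a histone chaperone gene, with a call that was lost without pla1-WT replicate 2 or pla1-Y86D replicate 3 and with total count scaling or DESeq2. Leaving it out made 3 calls higher and 10 lower among 13.

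Genes of ornithine supply and use, with sib3, were divided. Of these 9, 5 were called higher and 3 lower, and the median log2 fold change was 0.13. The share called too is near the 81.2% of all features, where 40.1% were called higher and 41.1% lower. The arginase gene car1, whose product makes ornithine, averaged 62.8 ± 0.19 CPM in pla1-Y86D and 35.4 ± 1.5 CPM in pla1-WT (log2 fold change 0.83, edgeR adjusted p = 1.07e-18). The acetylglutamate synthase gene arg6 fell by 0.70 and the ornithine transaminase gene car2 by 0.57, while arg1 was at 0.01 (edgeR adjusted p = 0.718). sib3, annotated in siderophore biosynthesis and named after its value was seen, averaged 229 ± 4.3 CPM in pla1-Y86D and 209 ± 2.5 CPM in pla1-WT (0.13, edgeR adjusted p = 9.94e-06). With sib1 and sib2, the synthesis genes thus had log2 fold changes between -0.10 and 0.46.

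**Figure D4:**
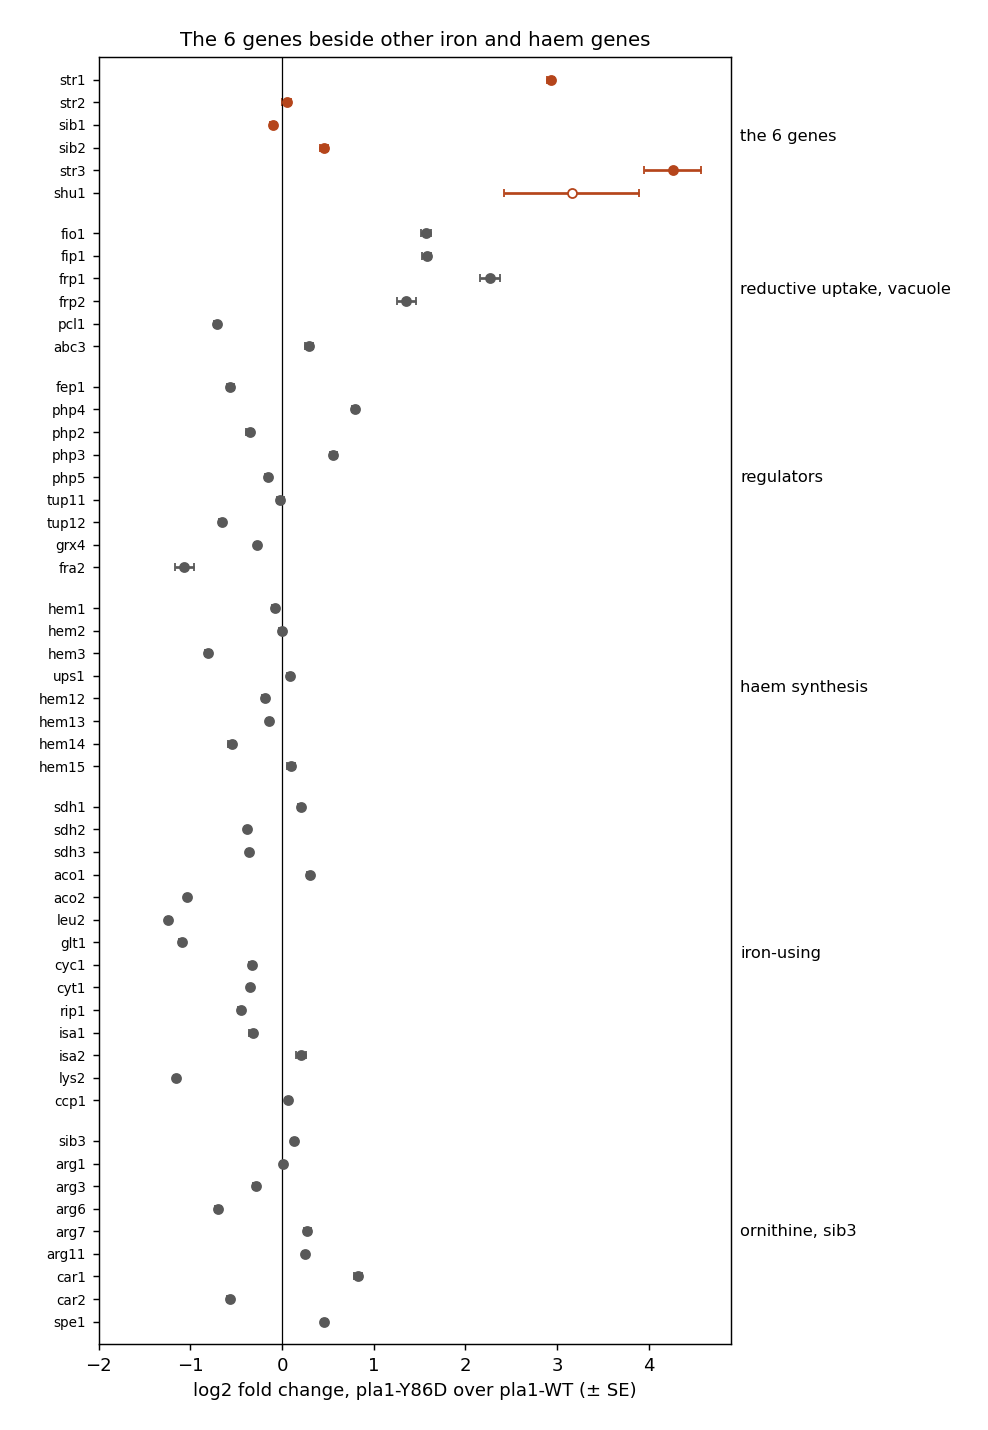
Log2 fold change (horizontal axis, pla1-Y86D over pla1-WT, ± SE) of the 6 genes (orange, the open circle of shu1 from the fit without a filter) and of the genes of 5 iron and haem lists (grey). The transporter genes str1 and str3 lie to the right of every listed gene, and frp1 at 2.27 is the nearest of those.

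The protein-coding genes with the most similar profiles over the 6 libraries were sought by the distance between log2(CPM + 0.5) values centred on each gene's mean. With only 2 strains, this measure mostly reflects the size of the strain difference. For str1 they were the meiotic cohesin gene rec8 (distance 0.174), the enolase gene eno102 (0.201) and mei4 (0.204), for a meiotic transcription factor, with log2 fold changes of 2.85, 3.07 and 2.83. For str3 they were mug10 (0.393), mei4 (0.435) and mug8 (0.457), at greater distances. Their log2 fold changes of 2.675, 2.83 and 2.53 were well below the 4.26 of str3, whose profile the added 0.5 flattens. The nearest to sib2 were psg1, dnf2 and atg15 (0.0619 to 0.0692), and the nearest to sib1 were mug174, rpl42 and gtp1 (0.0175 to 0.0306). For str2 they were vac7, sdd3 and ggt2 (0.0682 to 0.0835), none of which was called in the fit of all features. For shu1 they were SPBC28E12.02, res2 and jmj1 (0.0692 to 0.146), a match to a profile that the added 0.5 flattens.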

How the data were processed

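Per the labels' protocols, poly(A)+ RNA went into strand-specific TruSeq libraries that were read from both ends. The submitters' processing notes name build ASM294v2 and the tools HTSeq 0.10.0, HISAT2 2.1.0, DESeq, DESeq2 and SAMtools. The count table holds whole-number counts per feature, deposited without normalization. A table of the authors' own DESeq2 comparison was also deposited, and per the file headers its signal columns (means of normalized counts), log2 fold changes with SE, Wald score and p-values come from the authors.

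Counts were fitted here with edgeR 4.0.16 in R 4.3.3: filterByExpr, TMM scaling, robust quasi-likelihood test with strain as the only term, and Benjamini-Hochberg adjustment over 6267 features. Each SE is the log2 fold change over the root of F, and 95% intervals assume normal errors. The fits were tested on simulated data. Changes there were all 2-fold, in features with a higher mean count than the haem genes had in the wild type. Only a small part of the features was changed there, as many up as down, whereas 81.2% were called in these data. The simulation therefore does not show how the fits or the scaling perform with so many changes. DESeq2 1.42.0, limma-voom (limma 3.58.1), other scalings and filters, protein-coding features alone, a replicate block and leaving out each library were alternatives. Libraries with the same number did not deviate together (correlation -0.0731 to -0.0171). Within a strain, counts differed between libraries by more than counting error (chi-square over degrees of freedom at least 1.63). This cannot exclude that libraries were separate preparations of 1 RNA sample.

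RefSeq annotation of assembly ASM294v3 matched 97.8% of the features by systematic ID. Since that is another build than the files', it gave only which features neighbour or overlap each other, strand and coding length, and no sequence or coordinate is printed. The 6 genes and the lists were chosen with earlier results of these data known. Genes named beyond the 6 were the 3 largest changes among the called of each list, the uncalled of lists of 9 or fewer, adjacent and overlapping features, and the 3 nearest profiles per gene, unless said otherwise. No row matched sdh4 or ilv3, which were left out.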

Additional observations from a re-analysis of the deposited data

How the results depend on the processing

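In all alternative fits that held them, str1, str3 and sib2 kept their direction and call. Their log2 fold changes ranged from 2.89 to 2.99 for str1, from 3.92 to 4.88 for str3 and from 0.41 to 0.51 for sib2. With a mean count of at least 50, str3 could not be fitted. The small values of the other genes depended on the fit. With protein-coding features alone, str2 was called at 0.11 and sib1 lost its call at -0.042, and with DESeq2 sib1 lost it at -0.090; the cause was not tested. Leaving out 1 library gave 0.0090 to 0.093 for str2 and -0.12 to -0.08 for sib1. The shu1 ratio ranged from 6.57 to 19.8 over those. For haem synthesis, the number called higher was 0 with total count scaling, 0 with DESeq2 and from 0 to 2 when 1 library was left out, and it was 1 without ups1, an alternative chosen after seeing the data. The gap of str1 minus str3 reversed to -1.18 with 0.05 added, also chosen after seeing the data, since less was added to the low str3 levels.

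The labels do not say that libraries with the same replicate number belong together. With the number as a block 5057 features were called, against 5086 without, the calls of str1 (2.93), str3 (4.27), sib1 (-0.10) and sib2 (0.46) stood, str2 (0.05) stayed uncalled, the antisense RNA of ies4 lost its call (0.69, edgeR adjusted p = 0.062), and none of the libraries correlated best with its own number (0 of 6). Over all alternatives 2053 to 2621 features were called higher and 2058 to 2695 lower. Among 76 other genes, 17 changed a call or sign in at least 1 alternative. The uncalled hem2 turned to 0.0025 with RLE scaling and with DESeq2, 0.016 with upper quartile scaling, 0.019 with a mean count of at least 50, 0.050 with protein-coding features. In the same way tup11 turned to 0.0011, 0.0038 and 0.035 with upper quartile scaling, the mean count and protein-coding features, and rpl6 to 0.0046, 0.0073 and 0.039. With 1 library left out, hem2 ranged from -0.019 to 0.0056, tup11 from -0.047 to 0.015, rpl6 from -0.028 to 0.0030, mrpl39 from -0.011 to 0.076 and arg1 from -0.0036 to 0.024, and arg1 was -0.013 with total count scaling. Depth limits the haem genes, whose wild-type libraries held 0 to 7 counts.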
